A study of Mus musculus with 6 samples.

Results

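The genes described here are effectors that interferon switches on in a cell, followed through each array of a knockdown of Sep15 in CT26 cells. CT26 is a colon carcinoma line that came from a BALB/c mouse. The list holds 38 genes, and a gene was measured where the array annotation gave it a probe set of its own. This held for 34 of the 38, out of 18193 genes measured in all. A gene's value is that of its probe set with the highest mean over the 6 arrays. Control cells carried the empty vector pU6-m3 and shSep15 cells the same vector with a hairpin against Sep15, with 3 samples of each. Total RNA of a sample went to 1 Affymetrix mouse expression array. The labels give neither a time after transfection nor whether the cells were a clone or a pool, and the knockdown rests on 1 hairpin. The series says that the 3 arrays of a construct had different mRNA samples, and nothing says that these came from separate cultures, so p-values measure only the spread between these samples, which may be technical.

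Interferons are secreted proteins that bind receptors on the cell surface, activate the kinases Jak1, Jak2 and Tyk2, and through transcription factors such as Stat2 and Irf9 turn on a large set of effector genes. The effectors detect viral RNA, stop translation, degrade RNA, block entry or release of virus, or attack the vacuoles of intracellular parasites. A complex that holds Stat2 and Irf9 binds a promoter element, the interferon-stimulated response element, whose core repeats GAAA, while the element of the interferon γ response reads TTCNNNGAA. Tumour cells can express these genes at a basal level without added interferon.

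Of the 34 measured genes, 24 had promoters in the RefSeq table of build GRCm38.p6, which gives 250 bases before to 50 bases after a transcription start. The letters GAAA, any 2 bases and GAAA again, on either strand and with overlapping matches allowed, stood in the window of 15 of the 24 genes, in 16 of their 27 promoters (59.3%), against 3.44% of all 32851 promoters. The letters TTCNNNGAA stood in 7 of the 27 (25.9%), against 8.3% of all. The stretches below belong to 6 genes that were at least 2-fold higher on the array of shSep15 replicate 3, and show where the repeat lies before the start. All run 5′ to 3′ on the gene's strand, and the capitals mark the repeat or, where it lies on the other strand, its reverse complement (TTTC, any 2 bases, TTTC).
Ifit1: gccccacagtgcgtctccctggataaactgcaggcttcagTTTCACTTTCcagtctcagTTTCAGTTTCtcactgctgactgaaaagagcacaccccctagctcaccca
Oas3: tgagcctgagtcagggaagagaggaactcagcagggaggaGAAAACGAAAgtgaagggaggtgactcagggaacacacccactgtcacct
Bst2: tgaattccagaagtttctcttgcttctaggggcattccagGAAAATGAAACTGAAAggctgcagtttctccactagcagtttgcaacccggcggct
Irgm1: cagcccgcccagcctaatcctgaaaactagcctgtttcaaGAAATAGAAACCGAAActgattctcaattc
Irgm2: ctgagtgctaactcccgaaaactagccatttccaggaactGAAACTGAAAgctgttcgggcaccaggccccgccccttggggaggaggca
Igtp: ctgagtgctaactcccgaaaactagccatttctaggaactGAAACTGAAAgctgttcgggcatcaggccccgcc
The Ifit1 stretch (chr19:34640745-34640853, plus strand) holds 2 copies, beginning at positions −104 and −85 from the start. The Oas3 stretch (chr5:120777685-120777774, minus strand) holds 1 copy. In Bst2 (chr8:71537547-71537642, minus strand) and Irgm1 (chr11:48871421-48871490, minus strand) 2 copies overlap. Irgm2 (chr11:58214873-58214962, plus strand) and Igtp (chr11:58199482-58199555, plus strand) are neighbouring genes, and 72 of the 74 bases of the Igtp stretch were the same as in the Irgm2 stretch. Of the 15 genes with the repeat in the window, 11 were at least 2-fold higher on the array of shSep15 replicate 3, as were 7 of the 9 without it. The median difference on that array was 1.34 with the repeat and 1.25 without it, both in log2.

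The deposited values are log2 values from RMA, which normalizes the arrays to each other, so that every array had a median between 5.83 and 5.87. Correlations over all probe sets were 0.993 to 0.996 among control arrays, 0.994 to 0.995 among shSep15 arrays and 0.975 to 0.980 between the groups. The brighter probe set of Selenof, the current symbol of Sep15, read 12.41, 12.44 and 12.35 in control and 9.34, 9.59 and 9.50 in shSep15 samples, so 12.0%, 14.3% and 13.4% of the control mean was left on shSep15 1, 2 and 3. The other probe set was near background. A level of 6.02, taken from probe sets for olfactory and vomeronasal receptors, served as the background level. Of 11 markers of colon epithelium 5 exceeded it on an array (Epcam, Krt8, Krt18, Krt20 and Lgals4), whereas Cdh1, Vil1, Cdx1 and Cdx2 did not. Krt18, Krt20 and Lgals4 fell, with differences of −2.16, −2.13 and −1.0 (limma adjusted p = 9.66e-06, 2.45e-05 and 0.00217), and the summed linear level of the 11 was 935 to 1110 in control and 608, 665 and 564 on shSep15 1, 2 and 3. Of 12 leukocyte markers 4 exceeded it (Cd3e, Csf1r, Cd14 and Lyz2), and the common leukocyte antigen Ptprc and the myeloid integrin Itgam did not. Of the 12, 0 rose and 3 fell, namely Cd14 (−0.73), Lyz2 (−0.47) and Itgam (−0.37; limma adjusted p = 0.00402, 0.0166 and 0.0204). The summed linear level of the 12 was 1230 to 1340 in control and 953 to 1060 in shSep15 samples, lowest on shSep15 3. Endothelial markers summed to 200 to 204 and 196 to 210. The part of these markers in the results on the effectors was not tested.

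The interferon-stimulated effectors separated the shSep15 arrays from each other more than they separated shSep15 from control cells. On shSep15 3, 23 of the 34 genes were at least 2-fold above the control mean, against 2.58% of all genes. On shSep15 1 this held for 0 of the 34 (2.86% of all genes) and on shSep15 2 for 1, Usp18 (2.19% of all genes). At least 2-fold below the control mean were 3 on shSep15 1 (3.12% of all genes), 2 on shSep15 2 (3.69%) and 1 on shSep15 3 (3.1%). For the 34 genes the median log2 difference came to −0.19, 0.03 and 1.31 on shSep15 1, 2 and 3, and for all genes to −0.03, 0.03 and 0.00. Among the 31 of them with an array above background, 0, 1 and 21 were at least 2-fold higher on shSep15 1, 2 and 3, against 4.48%, 3.44% and 4.03% of the 11551 genes so expressed. With 1 array on one side these are counts and differences without a test.

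**Figure D1:**
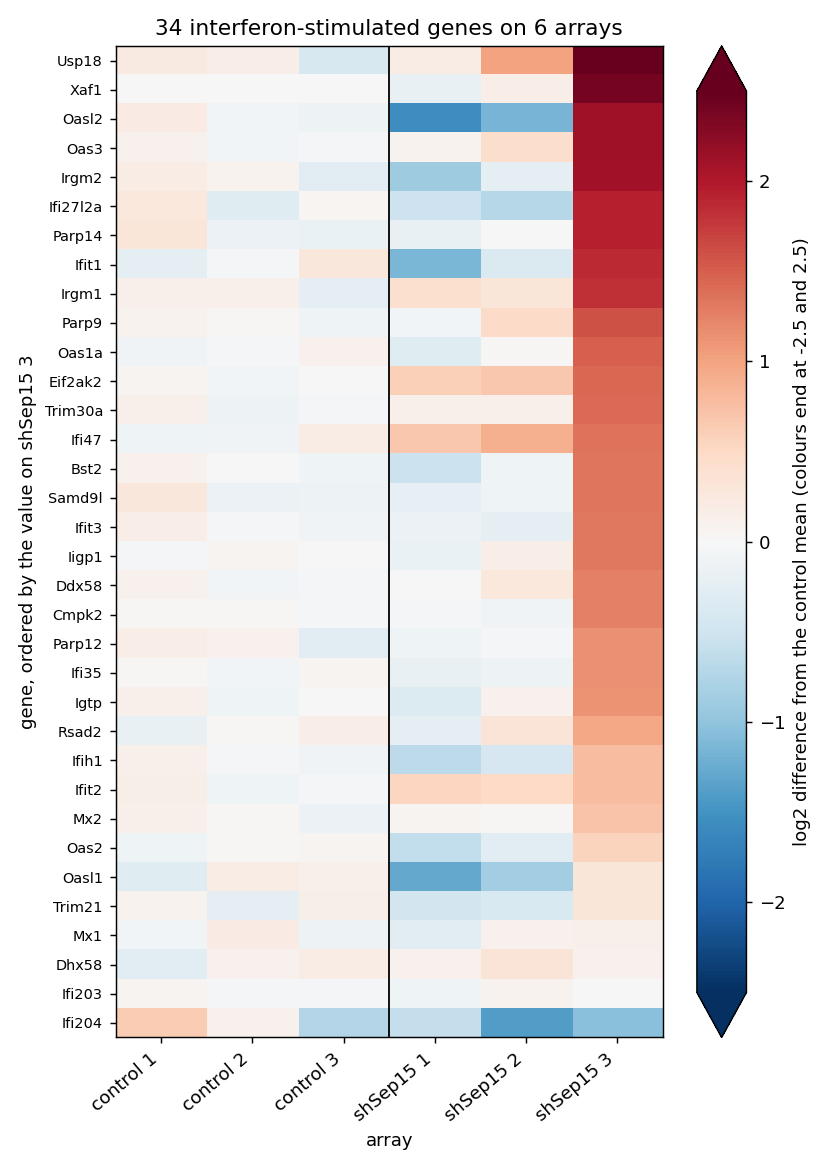
Difference of each of the 34 genes from its control mean (log2, colour) on the 6 arrays (columns, control left of the line); genes are ordered by the value on shSep15 3. The column of shSep15 3 is red for 32 of the 34 genes (49.9% of all genes lie above the control mean there). On shSep15 1, 24 of the 34 lie below the control mean (54.8% of all genes).

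**Figure D2:**
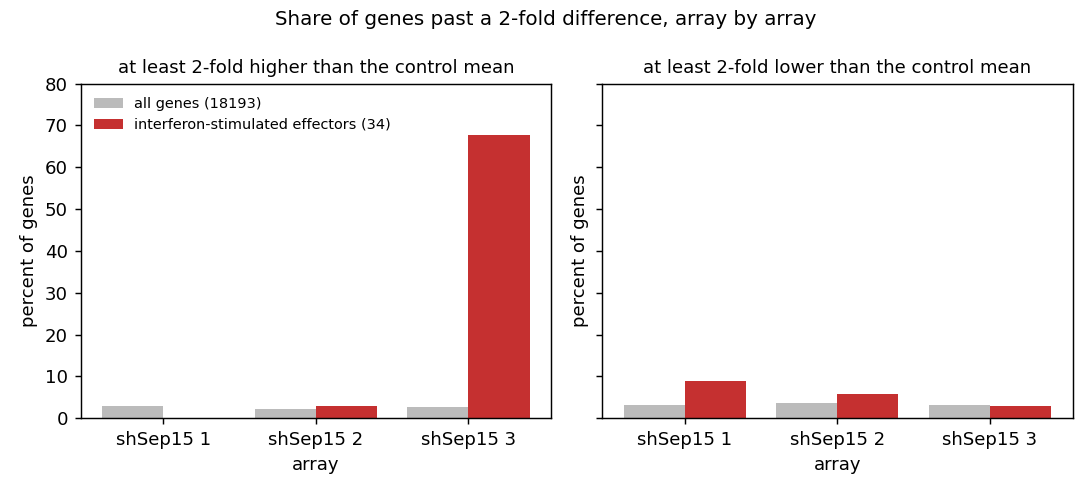
Percent of genes at least 2-fold above (left) or below (right) the control mean on each shSep15 array, for all 18193 genes (grey) and the 34 interferon-stimulated effectors (red). The bar of the 34 on shSep15 3 reaches 67.6%, against 2.58% of all genes.

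The order of the shSep15 arrays was much the same from gene to gene. In 25 of the 34 genes shSep15 1 read lowest, shSep15 2 next and shSep15 3 highest of the 3, an order found in 14.5% of all genes. shSep15 3 was the highest of all 6 arrays in 30 genes (14.0% of all genes), and shSep15 1 the lowest of all 6 in 18 (17.5% of all genes). shSep15 1 lay below every control array in 20 genes (34.8% of all genes), shSep15 2 in 12 (29.2%) and shSep15 3 in 1 (30.8%). Above every control array were 4, 13 and 30 genes on shSep15 1, 2 and 3, against 29.3%, 37.4% and 32.6% of all genes. The SD among the 3 shSep15 arrays had a median of 0.76 over the 34 genes and 0.11 over all genes, and 30 of the 34 exceeded the 95th percentile of all genes, 0.28. Among the control arrays the median SD was 0.13 and 0.12, and 2 of the 34 exceeded the 95th percentile, 0.32.

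Few other genes behaved this way. Over all 18193 genes, 49 were at least 2-fold above the mean of the other 2 shSep15 arrays on shSep15 3 (0.269% of genes), and 23 of these were among the 34. On shSep15 1, 22 genes were at least 2-fold below the mean of the other 2 (0.121%), and 12 of these were among the 34. On shSep15 2, 11 genes were as far below the others (0.0605%), 3 of them among the 34, and 0 as far above (0.0%). The reverse directions held 5 genes above on shSep15 1 (0.0275%) and 3 below on shSep15 3 (0.0165%), none of the 34. The control arrays held 10, 12 and 16 such genes above (0.055%, 0.066% and 0.0879%) and 5, 3 and 12 below (0.0275%, 0.0165% and 0.066%), with 1 of the 34 among them, Ifi204 on control 3. For shSep15 1 and 2 the mean of the other 2 includes shSep15 3. A gene high on shSep15 3 alone can therefore count as low on shSep15 1 or 2. Against the control mean, 3 of the 34 were at least 2-fold lower on shSep15 1 and 2 on shSep15 2 (3.12% and 3.69% of all genes). The 3′ minus 5′ difference of the Gapdh control was −0.10 on shSep15 3 and −0.12 to −0.01 on the other arrays, and that of Actb 0.21, against 0.20 to 0.31. The 18S control read 6.26 on shSep15 3 and stood apart on control 3, at 8.30. The BioB spike-in, which is added to each labelled sample, averaged 8.24 on shSep15 3, the highest of the arrays, against 7.07 to 7.79, and its part in the result was not tested.

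Over the 3 arrays of a group, 3 of the 34 genes rose and 0 fell (limma, adjusted p under 0.05), against 12.2% and 12.8% of all genes. At an unadjusted p under 0.05, 4 were higher and 1 lower, against 17.3% and 17.3% of all genes. Without shSep15 3, limma called the same 3 genes higher (9.33% of all genes were called higher) and 3 others lower (9.89%), namely Ifih1, Oasl1 and Oasl2. Leaving out control 1, 2 or 3 or shSep15 1 or 2 gave 3, 2, 3, 3 and 3 genes higher, against 10.8%, 10.3%, 10.4%, 9.57% and 9.76% of all genes. It gave 0, 0, 1, 0 and 0 lower, against 10.4%, 10.4%, 12.7%, 11.0% and 9.95%. The groups did not overlap, with shSep15 higher, in 4 of the 34 genes (19.3% of all genes), and with shSep15 lower in 0 (18.7%). The median difference of the 34 was 0.32 with all arrays and −0.08 without shSep15 3. In bulk samples such as these, a change in fewer cells and a smaller change in all cells cannot be told apart.

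The RNA sensors of the cytoplasm differed among themselves. Ifih1 encodes MDA5, which binds long double-stranded RNA, and read 9.73, 9.55 and 9.52 in control and 8.95, 9.18 and 10.38 in shSep15 samples. The first 2 shSep15 arrays lay below all control arrays and the last above them, so the groups overlap and the mean difference was −0.10 (SE 0.31, limma adjusted p = 0.886). Without shSep15 3, Ifih1 fell by 0.54 (limma adjusted p = 0.0299). Ddx58 encodes RIG-I, the sensor of RNA with 5′ triphosphates, and read 9.17, 9.01 and 9.04 in control and 9.07, 9.34 and 10.33 in shSep15 samples, with a 2.4-fold excess on shSep15 3 alone. Dhx58 encodes LGP2, a regulator of the other two sensors. Its brightest probe set stayed between 5.40 and 6.02 on every array. Only the shSep15 2 reading passed the background level of 6.02, and by less than the rounding shown. Another of its probe sets read 5.22 to 5.81 in control and 5.25, 5.84 and 6.99 in shSep15 samples, above background on shSep15 3 alone.

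The 2′-5′-oligoadenylate synthetases make the messenger that activates RNase L. Oas1a read 9.30, 9.35 and 9.49 in control and 9.07, 9.41 and 10.87 in shSep15 samples, so that only shSep15 3 stood clear above the controls (log2 1.49). Oas3 read 6.16, 6.0 and 6.01 in control, close to background, and 6.14, 6.50 and 8.17 in shSep15 samples. Oas2 read 7.83, 7.96 and 8.0 in control and 7.31, 7.66 and 8.48 in shSep15 samples, below all controls on 2 arrays and above them on the other. Oas1g was not analysed here.

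The OAS-like genes Oasl1 and Oasl2 lie beside each other on chromosome 5 and lay furthest of the 34 genes below the control mean on shSep15 1. Oasl1, an inhibitor of Irf7 translation, read 9.84, 10.32 and 10.26 in control and 8.86, 9.27 and 10.45 in shSep15 samples. Oasl2 read 7.49, 7.23 and 7.16 in control and 5.74, 6.12 and 9.41 in shSep15 samples. It was 2.92-fold lower than the control mean on shSep15 1, with a reading under the background level, and 4.34-fold higher on shSep15 3. The shSep15 SD of Oasl2 was 2.02, against 0.18 in control, and the mean difference of −0.20 (SE 0.78, limma adjusted p = 0.909) describes none of the 3 arrays. Without shSep15 3, Oasl1 fell by 1.08 and Oasl2 by 1.36 (limma adjusted p = 0.00766 and 0.00207).

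Inhibitors of translation included genes that rose on every shSep15 array. Ifit2 read 9.12, 8.87 and 8.93 in control and 9.51, 9.47 and 9.74 in shSep15 samples. The groups did not overlap and the shSep15 arrays were close together, with a rise of 0.60 (SE 0.12, limma adjusted p = 0.00521). Its neighbours on chromosome 19 did otherwise. Ifit1, which binds RNA that lacks cap methylation, read 8.08, 8.26 and 8.59 in control and 7.17, 7.95 and 10.18 in shSep15 samples, 2.21-fold below the control mean on shSep15 1 and 3.66-fold above it on shSep15 3. Ifit3, a partner of Ifit1, read 6.45, 6.24 and 6.20 in control and 6.15, 6.05 and 7.61 in shSep15 samples.

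Eif2ak2 encodes PKR, the kinase that stops translation by phosphorylating eIF2α when it binds double-stranded RNA. It read 7.42, 7.30 and 7.37 in control and 7.96, 8.04 and 8.79 in shSep15 samples. All shSep15 arrays lay above all control arrays, and it rose by 0.90 (SE 0.20, limma adjusted p = 0.0129). The gene's remaining probe sets also passed the test, at 1.68 and 0.93 (limma adjusted p = 0.00454 and 0.0475). Without control 2 the call of the brightest probe set ended (log2 0.87, limma adjusted p = 0.0571). The gene lies on chromosome 17.

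**Figure D3:**
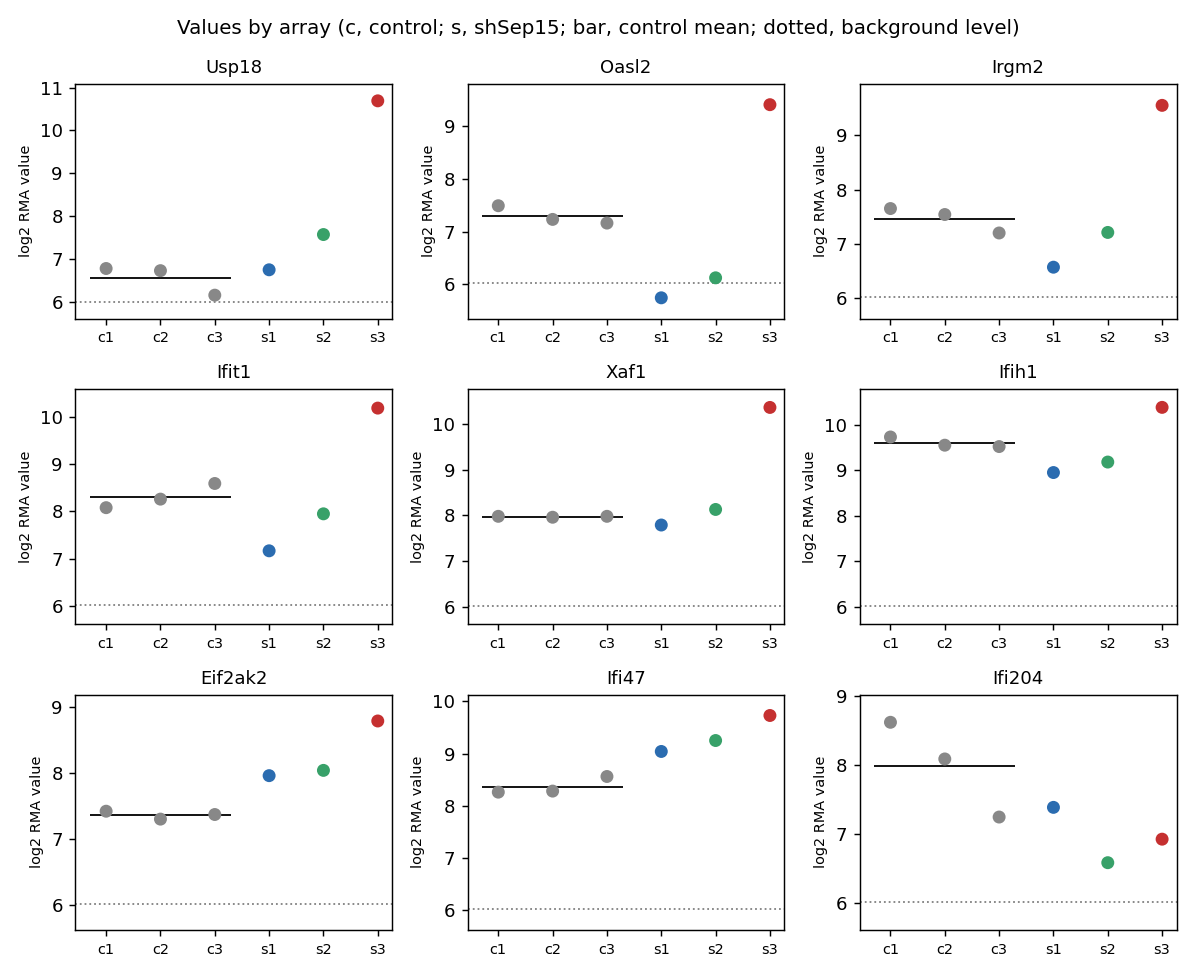
Log2 RMA value (vertical axis) of 9 effectors on the control (c1 to c3, grey) and shSep15 arrays (s1 blue, s2 green, s3 red), with the control mean as a bar and the background level as a dotted line. In Usp18, Oasl2, Irgm2, Ifit1, Xaf1 and Ifih1 shSep15 3 stands above every other array, in Eif2ak2 and Ifi47 all 3 shSep15 arrays lie above the controls, and in Ifi204 shSep15 2 and 3 lie below them.

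Usp18, the protease that removes the ubiquitin-like ISG15 from proteins and dampens signalling at the type I interferon receptor, showed the largest difference of the 34 genes on shSep15 3. It read 6.79, 6.74 and 6.17 in control and 6.76, 7.58 and 10.69 in shSep15 samples. shSep15 1 lay within the control range, shSep15 2 was 2.02-fold and shSep15 3 17.5-fold above the control mean. The mean difference of 1.78 (SE 0.81, limma adjusted p = 0.189) was not called. Isg15 itself had no probe set of its own. A probe set that the annotation gives to both Isg15 and Gm9706, and which is assigned to neither here, read 8.05, 8.32 and 7.95 in control and 7.61, 8.43 and 10.57 in shSep15 samples.

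The immunity-related GTPases attack or guard vacuoles that hold pathogens, and all 5 measured ones were at least 2-fold above the control mean on shSep15 3. Ifi47 read 8.26, 8.28 and 8.56 in control and 9.04, 9.25 and 9.73 in shSep15 samples, did not overlap between the groups and rose by 0.98 (SE 0.18, limma adjusted p = 0.00378). Irgm1, a regulator of the other family members, read 8.50, 8.49 and 8.12 in control and 8.78, 8.68 and 10.19 in shSep15 samples. Its groups did not overlap either, but the difference of 0.85 (SE 0.35, limma adjusted p = 0.138) was not called, with shSep15 3 well above the other two arrays.

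Irgm2 and Igtp, whose promoter stretches are nearly the same, differed on shSep15 1 and 3 in the same directions. Irgm2 read 7.65, 7.54 and 7.20 in control and 6.57, 7.21 and 9.55 in shSep15 samples, 1.86-fold below the control mean on shSep15 1 and 4.23-fold above it on shSep15 3. Igtp read 7.81, 7.59 and 7.68 in control and 7.35, 7.80 and 8.82 in shSep15 samples. Iigp1, on chromosome 18, stayed under the background level on every array, though its shSep15 3 reading of 5.92 was above the control readings of 4.55 to 4.67. Tgtp1 shares its probe set with Tgtp2, and that probe set, assigned to neither, read 5.48 to 6.29 in control and 5.94, 6.21 and 7.84 in shSep15 samples.

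Of the dynamin-like Mx GTPases, which trap viral particles, Mx1 was under the background level on all arrays (4.18 to 4.67). Mx2 read 5.96, 5.85 and 5.69 in control and 5.89, 5.86 and 6.55 in shSep15 samples, so it passed the background level on shSep15 3 alone. Among genes that restrict entry, copying or release of virus, Bst2, which tethers budding virions, read 9.22, 9.11 and 9.02 in control and 8.59, 9.01 and 10.46 in shSep15 samples. Samd9l, an inhibitor of translation and virus growth, read 8.62, 8.19 and 8.22 in control and 8.13, 8.23 and 9.67 in shSep15 samples. Both had shSep15 1 as the lowest and shSep15 3 as the highest array.

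Rsad2 encodes viperin, an enzyme that makes a chain-terminating nucleotide, and read 7.01, 7.21 and 7.36 in control and 6.95, 7.51 and 8.16 in shSep15 samples. Cmpk2, its neighbour on chromosome 12 and a nucleotide kinase, was under the background level on all arrays, with 4.67 to 4.75 in control and 4.68, 4.64 and 5.97 in shSep15 samples. At 1.96-fold above the control mean on shSep15 3, Rsad2 lay just short of the 2-fold limit used for counting, and Igtp, at 2.18-fold, was the nearest gene past it.

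The mono-ADP-ribosyltransferase relatives Parp9, Parp12 and Parp14 were 3.0-fold, 2.22-fold and 3.84-fold above the control mean on shSep15 3, where the control mean of Parp14, 5.82, was under the background level. Parp14 read 6.12, 5.68 and 5.66 in control and 5.63, 5.83 and 7.76 in shSep15 samples, and Parp9 read 7.77, 7.71 and 7.59 against 7.62, 8.17 and 9.28. On shSep15 1 all 3 lay close to the control mean, between −0.19 and −0.07 in log2. Trim30a, a ubiquitin ligase, read 7.96, 7.71 and 7.81 in control and 7.95, 7.96 and 9.24 in shSep15 samples. Trim21, the cytoplasmic receptor for antibody-coated virus, spanned less, with 8.09, 7.78 and 8.16 in control and 7.55, 7.63 and 8.31 in shSep15 samples.

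Xaf1, a pro-apoptotic factor, read 7.98, 7.96 and 7.98 in control (SD 0.01) and 7.79, 8.13 and 10.36 in shSep15 samples, 5.22-fold above the control mean on shSep15 3. Ifi27l2a, a small membrane protein, read 6.91, 6.34 and 6.69 in control and 6.13, 5.94 and 8.60 in shSep15 samples, below all controls on the first 2 arrays. Ifi35 read 9.14, 9.06 and 9.18 in control and 8.94, 8.99 and 10.27 in shSep15 samples. None of these 3 was called over the group (limma adjusted p = 0.414, 0.845 and 0.632). Ifi44 was not analysed here.

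The Ifi200 genes on chromosome 1 encode DNA-binding proteins with a pyrin domain. On their own probe sets they did not share the pattern. Ifi204, the mouse relative of human IFI16, read 8.62, 8.09 and 7.25 in control and 7.39, 6.59 and 6.93 in shSep15 samples. shSep15 2 and 3 lay below all controls, and the difference of −1.01 (SE 0.32, limma adjusted p = 0.0586) just missed the threshold. It was called without control 3 (log2 −1.38, limma adjusted p = 0.00804), the array whose 18S control read 8.30 against 6.01 to 6.53 on the others. It was not called when any other array was left out (limma adjusted p from 0.0594 to 0.217), with −0.70 without control 1 and −0.83 without shSep15 2. On all 6 arrays it was called with arrays normalized again, with array weights, with a filter on dim probe sets, with the mean over each gene's probe sets and with a replicate block (limma adjusted p from 0.0108 to 0.0449), and not without the intensity trend or with arrays shifted to the same median (limma adjusted p = 0.0765 and 0.063). The probe set of Ifi203 alone stayed between 6.93 and 7.11 on every array.

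Probe sets that Ifi203 and Ifi204 share with relatives were far lower in shSep15 cells, and they are assigned to no single gene here. The 3 that hold Ifi203 with a pseudogene and unnamed loci differed by −2.31, −2.67 and −2.20 (limma adjusted p = 6.89e-05, 8.27e-05 and 0.000201). The brightest of them read 11.46, 11.34 and 11.03 in control and 8.97, 8.61 and 9.66 in shSep15 samples. The 1 that joins Ifi204 with Ifi205, Ifi211 and Mndal differed by −2.02 (limma adjusted p = 0.00138), with 10.52, 10.11 and 9.82 in control and 8.57, 7.36 and 8.46 in shSep15 samples. On all 4 the highest shSep15 reading was lower than the lowest control reading, shSep15 3 included. Among the shSep15 arrays, the 3 with Ifi203 read highest on shSep15 3. Their readings there were 5.99, 8.26 and 9.66, against 5.55, 7.26 and 8.97 on shSep15 1 and 5.20, 7.25 and 8.61 on shSep15 2. The 1 with Ifi204 did not, at 8.46 on shSep15 3 against 8.57 on shSep15 1.

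Of the 34 genes 11 had several probe sets, and 10 of those beside the brightest exceeded the background level on an array. All 10 were highest on shSep15 3, and 7 of them were at least 2-fold above their control mean there. A probe set could enter this count through shSep15 3 alone, as that of Dhx58 at 6.99 did, so the count is no independent support. By brightest probe set, 4.03% of genes with an array above background were as far above. No share was taken over the additional probe sets of all genes. Of the 34 genes, 31 exceeded the background level on an array, and Iigp1, Mx1 and Cmpk2 did not.

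The rest of the pathway, 75 of 86 listed genes, was measured to set these effectors in place, and 10 rose and 12 fell (limma, adjusted p under 0.05), shares near the 12.2% and 12.8% of all genes. Of 5 ligands, Ifnb1, interferon β, read 6.44, 6.32 and 6.64 in control and 5.67, 5.58 and 5.85 in shSep15 samples and fell by 0.77 (SE 0.13, limma adjusted p = 0.00228). Every shSep15 reading was under the background level, including that of shSep15 3. Ifna1 read 6.07 to 6.58 in control and 6.36 to 6.57 in shSep15 samples, and Ifna2, Ifna4 and Ifng were under background on all arrays. Of 6 receptor chains 1 fell, Ifngr2 of the interferon γ receptor, by 0.51 (SE 0.15, limma adjusted p = 0.0389), and 0 rose.

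**Figure D4:**
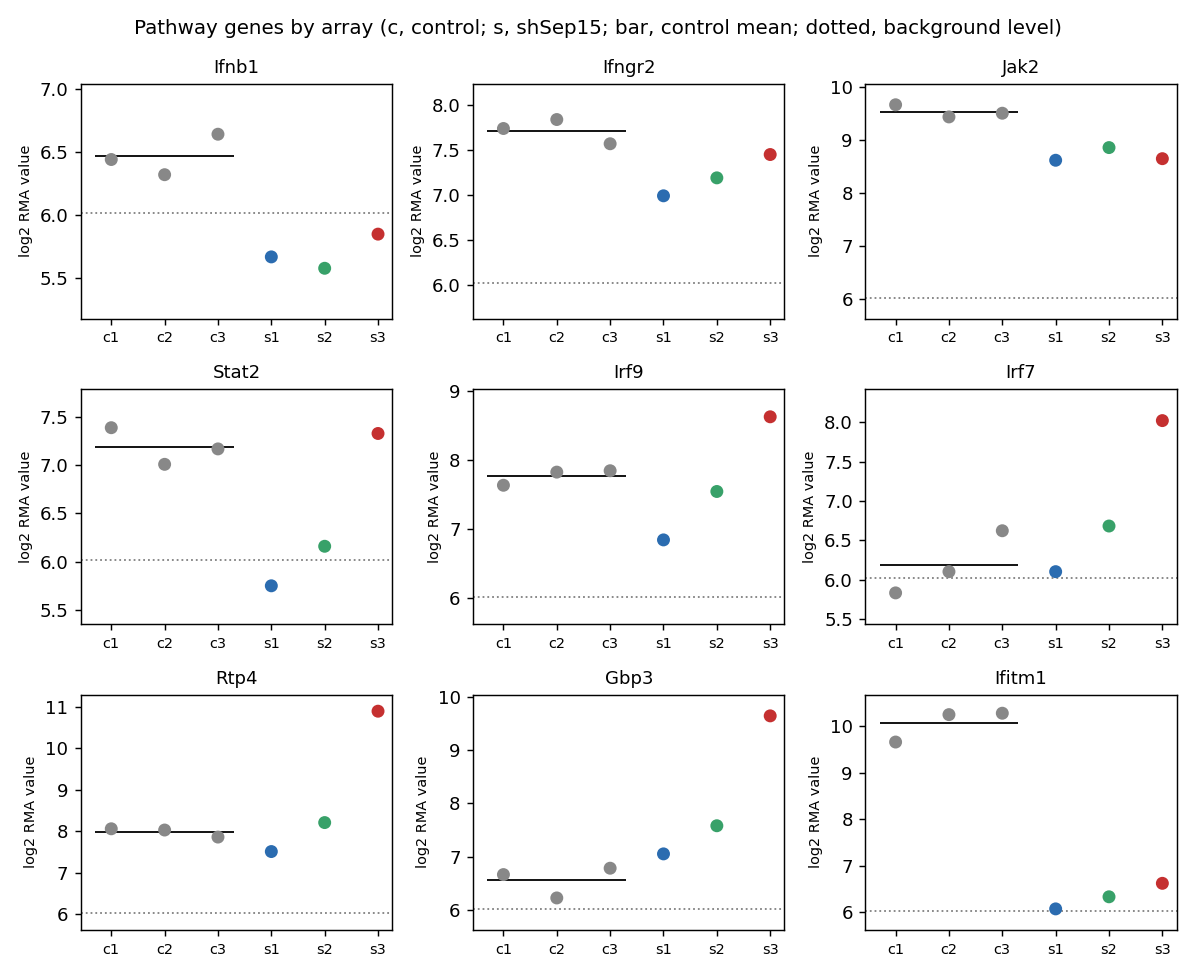
Log2 RMA value (vertical axis) of 9 pathway genes outside the 34 effectors on the control (c1 to c3, grey) and shSep15 arrays (s1 blue, s2 green, s3 red), with the control mean as a bar and the background level as a dotted line. Rtp4, Gbp3, Irf7 and Irf9 are highest on shSep15 3, whereas Ifnb1 and Ifitm1 are lower on all 3 shSep15 arrays.

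Of 6 signal transducers measured, Stat2 and Irf9 differed most between the shSep15 arrays, and the median shSep15 SD of the 6 was 0.18. Stat2, a subunit of the complex that binds the response element, read 7.39, 7.01 and 7.17 in control and 5.75, 6.16 and 7.33 in shSep15 samples, and Irf9, which gives the complex its DNA binding, 7.63, 7.82 and 7.84 against 6.84, 7.54 and 8.62. Both had shSep15 1 lowest and shSep15 3 highest among the shSep15 arrays, and neither was called (limma adjusted p = 0.167 and 0.909). Jak2, a kinase of the interferon γ receptor, fell by 0.83 (SE 0.11, limma adjusted p = 0.000798), at 9.67, 9.44 and 9.51 in control and 8.62, 8.86 and 8.65 in shSep15 samples. Jak1 differed by 0.08 (limma adjusted p = 0.6) and Tyk2 by −0.23 (limma adjusted p = 0.322). Of 6 interferon regulatory factors 1 fell, Irf2, by 0.56 (SE 0.17, limma adjusted p = 0.0470), and 0 rose. Irf7, the factor that amplifies type I interferon, read 5.83, 6.10 and 6.62 in control and 6.10, 6.68 and 8.02 in shSep15 samples. None of 5 inhibitors of signalling, Socs1 and Socs3 among them, was called or past 2-fold on an array. At an unadjusted p under 0.05 1 of the 5 was called by limma, the phosphatase Ptpn2 (log2 −0.20).

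Of the 3 enzymes that attach ISG15, the ligase Herc6 rose by 0.77 (SE 0.17, limma adjusted p = 0.0101) and the conjugating enzyme Ube2l6 by 0.73 (SE 0.20, limma adjusted p = 0.0329), the latter from a control mean of 5.75, under the background level. Herc6 read 8.59, 8.23 and 8.71 in control and 9.14, 9.11 and 9.58 in shSep15 samples. Among 12 genes that sense nucleic acids, 2 rose and 1 fell. Sting1, the adaptor for cytosolic DNA, on chromosome 18, fell by 1.35 (SE 0.09, limma adjusted p = 2.01e-05), at 10.07, 10.01 and 10.15 in control and 8.64, 8.75 and 8.79 in shSep15 samples. Ticam1, the adaptor of Tlr3, rose by 0.55 (limma adjusted p = 0.00812) and Cgas, which makes the ligand of Sting1, by 0.39 (limma adjusted p = 0.0356).

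Among 16 other interferon-stimulated genes 3 rose and 2 fell. Ifitm1, which blocks fusion of virus with the cell, fell by 3.73 (SE 0.20, limma adjusted p = 4.99e-06), from readings of 9.66, 10.25 and 10.28 to 6.07, 6.33 and 6.62. The chemokine Ccl5 fell by 1.27 (SE 0.19, limma adjusted p = 0.00121). The surface protein Ly6e, the lysosomal thiol reductase Ifi30 and the nucleotide hydrolase Samhd1 rose by 0.49, 0.61 and 0.46 (limma adjusted p = 0.000271, 0.000684 and 0.00658). The chemokine Cxcl10 read 9.39, 9.32 and 9.18 in control and 7.75, 8.21 and 9.34 in shSep15 samples, low on the first 2 and level with the controls on shSep15 3.

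Guanylate-binding proteins, GTPases induced chiefly by interferon γ, included 2 that rose of 5 measured, Gbp2 by 2.43 (SE 0.38) and Gbp7 by 2.66 (SE 0.46, limma adjusted p = 0.00169 and 0.00305). The control readings of both were under the background level, from which these differences are measured. Gbp7 read 5.79, 5.67 and 5.62 in control and 7.64, 7.72 and 9.70 in shSep15 samples, so all 3 shSep15 arrays were higher and shSep15 3 highest. Gbp3 read 6.66, 6.22 and 6.78 in control and 7.05, 7.58 and 9.65 in shSep15 samples, and its difference was not called (limma adjusted p = 0.0893). Of 11 genes of MHC class I presentation 5 fell and 1 rose. Among those that fell was Nlrc5, which activates transcription of class I genes. Its difference was −2.29 (SE 0.14, limma adjusted p = 1.13e-05), and its lowest reading, 5.95, was on shSep15 3. The trimming peptidase Erap1 differed by −0.78 and the immunoproteasome subunit Psmb10, which rose, by 0.47 (limma adjusted p = 0.00542 and 0.0433). Tapbp, the tapasin that loads peptide, read 9.34, 9.36 and 9.42 in control and 9.66, 9.75 and 10.49 in shSep15 samples (limma adjusted p = 0.0624).

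The genes outside the 34 whose 6-array profile was most like the median profile of the effectors were sought among 2059 genes with an array above background and a span of at least log2 1. The 12 closest had Pearson's r of 0.861 to 0.995 over the 6 arrays. Since 1 array stands far from the other 5, r here reflects mainly how high shSep15 3 lay. The closest was Rtp4, a transport protein for receptors that interferon induces, with 8.06, 8.03 and 7.86 in control and 7.51, 8.21 and 10.90 in shSep15 samples. Next came Gm9706, whose annotation shares a probe set with Isg15, the helicase Ddx60, the nuclear body protein Sp100, Slfn8 and Gbp3. After these came H3f3b, Irf7, Tapbp, the ubiquitin ligase Dtx3l, a partner of Parp9, Ccdc80 and Trim12c. Ddx60 read 5.97, 5.83 and 5.41 in control and 5.57, 6.29 and 8.58 in shSep15 samples, and Dtx3l read 7.55, 7.60 and 7.16 against 7.90, 7.92 and 9.07.

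Among all 18193 genes, 30 read at least 2-fold higher on shSep15 3 than on any other array (0.165% of genes), and 19 of the 34 effectors were among them. Another 5 were Rtp4, Gbp2, Gbp3, Gbp7 and Irf7 of the pathway lists. The other 6 were Ddx60, Gbp2b, H3f3b, Phf11d, Gm9706 and Dtx3l, named after their values were seen. On shSep15 1 and 2, 1 and 0 genes stood as far above every other array (0.0055% and 0.0% of genes).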

How the data were processed

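The members and gene lists were chosen with earlier results of these data known. RNA of 3 control and 3 shSep15 samples was measured on 1 array each. The deposited values are log2 values that the authors made with RMA, per the submitters' processing notes. No version of it was found in the labels. RMA gives no call of presence and shrinks differences between dim probe sets. Values were used as deposited. Each of 45037 probe sets (45101 less 64 array controls) was fitted with limma 3.58.1 in R 4.3.3 (lmFit on group, eBayes with an intensity trend). Two-sided p-values received Benjamini-Hochberg adjustment over all of them, with a threshold of 0.05. Differences are shSep15 minus control. Symbols came from the platform annotation, updated by gene identifier through RefSeq (GRCm38.p6), for the 34945 probe sets with 1 symbol; 932 had several and 9160 none. A single shSep15 array was set against the control mean at a fold of 2, without a test. The background level is the 95th percentile of the means of 80 receptor probe sets. limma was tested on simulated data. All 34 effectors are named. Pathway genes are named where called or past 2-fold on an array, up to 4 a list. Others were singled out after their values were seen (Irf9, Jak1, Tyk2, the Ifna genes, Ifng, Socs1, Socs3, Ptpn2, and more than 4 of the other interferon-stimulated genes). Precision is limited by the number of arrays. Alternatives covered the trend, scaling, array weights, filters, probe set choice, chromosomes, a replicate block and leaving out each array.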

Additional observations from a re-analysis of the deposited data

How the results depend on the processing

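The 3 genes that rose (Ifit2, Eif2ak2 and Ifi47) were called under every alternative on all 6 arrays that tested them, and 2 to 3 were called when 1 array was left out. The number that fell, 0, was 1 with arrays quantile normalized again, with array weights, with only probe sets above background, with the mean of a gene's probe sets and with a replicate block, each time Ifi204, and 0 to 3 with 1 array left out (3 without shSep15 3). Same-numbered arrays correlated at 0.399, −0.201 and −0.0552 in their deviations from the group means, so the numbers were not taken to pair the samples, and the block changed no other call. At a fold of 1.5 in place of 2, 2 genes were higher and 7 lower on shSep15 1, and 3 higher and 4 lower on shSep15 2. At a fold of 3, 0 were lower on shSep15 1, 0 higher and 0 lower on shSep15 2, and 9 higher and 0 lower on shSep15 3. The shares of all genes past folds of 1.5 and 3 were not computed. These counts therefore show only how the counts at a fold of 2 move with the limit. The count of 1 gene higher on shSep15 2 became 0 against the control median and with arrays shifted to the same median, and was 0 to 1 with a control array left out, as was the count of genes lower on shSep15 3. At a fold of 2 the 23 genes higher on shSep15 3 ranged from 20 to 24 under the other alternatives, and the median there from 1.24 to 1.34. The 20 were of the 31 genes left without chromosomes 3, 4, 17, 18 and X. With only genes that had an array above background, the count was 21 of 31.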
